A study of Mus musculus with 26 samples.

Results

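Joints of mice with surgically destabilized knees were compared between 16 and 2 weeks after the operation. The comparison used 5 of the 26 arrays of a time course, the 3 pools titled DMM at 16 weeks and the 2 pools titled DMM at 2 weeks, and it covered every gene with a measurable signal. DMM, destabilization of the medial meniscus, cuts the ligament that anchors the medial meniscus of the knee, and it was performed on male mice of the C57BL/6 strain when they were 12 weeks old. The mice were therefore 14 weeks old at 2 weeks and 28 weeks old at 16 weeks, so that age and time after surgery cannot be told apart. Each array held RNA pooled from 3 mice, and another DMM pool at 2 weeks was not run because of the integrity of its RNA. The pooled tissue was a block of the medial compartment with articular cartilage, subchondral bone, meniscus, ligament, joint capsule and synovium. Sham-operated joints of the same strain, sex and ages, 3 pools at 2 weeks and 3 at 16 weeks, are given beside the DMM joints and share no sample with them, and 3 pools of unoperated mice at 12 weeks of age (time 0) and the DMM pools at 4 and 8 weeks, 3 each, show the course between.

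Articular cartilage is kept by chondrocytes, which surround themselves with type II, IX and XI collagens and aggrecan, whereas capsule, ligament and meniscus are built by fibroblasts from type I, III, V and VI collagens. A destabilized joint forms osteophytes at its margin, bony outgrowths that begin as cartilage and later hold marrow. Bone marrow, where red cells, granulocytes and B lymphocytes are made, lies within the subchondral bone of the block. In such bulk tissue, fewer cells of a type and less RNA per cell cannot be told apart.

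The values were log2 signals, on which a difference of 1 is a doubling, and a ratio is written here as the log2 signal at 16 weeks minus that at 2 weeks. The array medians lay between 7.90 and 7.95 over all 26 arrays. The blocks carried the markers of their labelled tissue. In the 2-week DMM pools, Col2a1 (type II collagen) had a log2 signal of 13.77 and 14.19, Prg4 (lubricin, of the cartilage and synovial surface) of 15.12 and 15.20 and Dmp1 (of osteocytes) of 12.70 and 13.05. They also held other tissues. The mean log2 signal of 37 skeletal muscle genes was 11.06 and 9.80 in the 2-week pools and 11.47, 10.85 and 10.86 in the 16-week pools, so that the groups overlapped and 2-week replicate 3 was the lowest. The mean of 25 erythroid genes was 11.12 and 11.01 at 2 weeks and 11.74, 12.10 and 12.16 at 16 weeks, with no overlap. The part that the amounts of muscle and marrow in the blocks had in the differences described here was not tested, but counts of more than 3 called genes are given with a covariate for each where it moved them by over 1.5 times.

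Of 22452 probe sets tested, 9466 (42.2%) differed between 16 and 2 weeks at an adjusted p under 0.05 in limma. With 1 probe set for each of 11500 genes, 3031 genes (26.4%) rose and 2258 (19.6%) fell, and the median log2 ratio of all genes was 0.06. The pools did not overlap for 7430 genes (64.6%), and for 5240 of the 5289 genes called. Decreases were the larger changes. The median of the called genes was 0.42 for those that rose and -0.51 for those that fell, while 388 genes fell at least 2-fold and 116 rose at least 2-fold. At 4-fold or more, 36 genes fell and 1 rose.

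The 12 genes that fell most were Saa3, C1qtnf3, Col9a1, Kera, Mmp3, Meg3, Ptn, Rian, Itm2a, Angptl1, Cthrc1 and Postn. Saa3, a serum amyloid A of inflamed tissue, had a log2 signal of 13.51 and 12.51 at 2 weeks and 8.40, 8.67 and 8.66 at 16 weeks, a 21.6-fold fall (log2 ratio -4.43, SE 0.75, adjusted p = 0.000123). C1qtnf3, a secreted C1q-like protein of cartilage and fibroblasts, went from 11.70 and 12.26 to 9.58, 7.11 and 7.70 (log2 ratio -3.85, SE 0.68, adjusted p = 0.000198). Both genes separated the groups fully, though the 16-week pools of C1qtnf3 were spread widely, with replicate 1 the highest. The 12 genes that rose most held 7 antibody genes, among them Iglv1, Jchain, Igha and Ighm, with Cd5l (a macrophage protein), Car1 (red cell carbonic anhydrase), Rec114, Cyp2j13 and Ppp2r2cos. Jchain, which joins the units of secreted IgA and IgM, had a log2 signal of 11.72 and 11.21 at 2 weeks and 12.98, 13.18 and 13.14 at 16 weeks (log2 ratio 1.64, SE 0.17, adjusted p = 4.57e-06). Of these 12, the calls of Cd5l and Rec114 were lost without 2-week replicate 3 (adjusted p = 0.136 and 0.12), that of Cyp2j13 without either 2-week pool (0.0525 and 0.0715), and that of Ppp2r2cos without any of 4 pools (0.0628 to 0.0999). Cd5l also lost its call without 16-week replicate 2 (0.0616), and with the erythroid covariate the ratios of Cd5l, Rec114, Cyp2j13 and Ppp2r2cos were -0.12, -0.08, -0.09 and -0.21.

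Sham joints over the same weeks moved the same way. In them 1938 genes (16.9%) rose and 1923 (16.7%) fell between 2 and 16 weeks. Of the 5289 genes called in DMM joints, 5230 (98.9%) had a ratio of the same sign in sham joints, 3328 were called there in the same direction, and 0 were called in the opposite direction. These 3328 genes were 62.9% of the DMM calls and 86.2% of the 3861 sham calls. Across all genes, which are not independent replicates, the 2 sets of ratios had a Pearson r of 0.923. The test of the difference itself, the DMM change minus the sham change, called 0 of 22452 probe sets (0%) in limma, with a smallest adjusted p of 0.639, and 1221 (5.44%) had an unadjusted p under 0.05. The median standard error of that difference was 0.14 on the log2 scale, so that small differences between the courses were not detectable with 2 and 3 pools a group. Larger differences of single genes also went uncalled in limma. Among them were -1.39 for Ptx3 and -0.84 for Capn6, both with an adjusted p of 0.639. The 0 calls therefore do not show that the courses were equal.

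**Figure D1:**
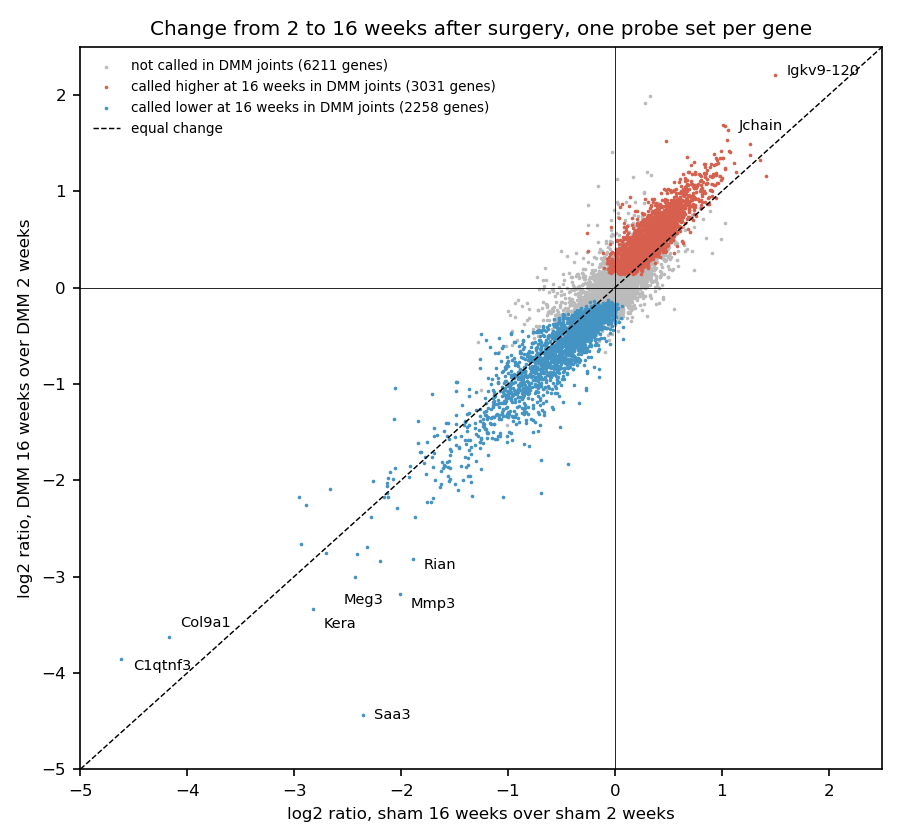
Log2 ratio of 16 over 2 weeks for 11500 genes in sham joints (horizontal axis) and DMM joints (vertical axis), with genes called in DMM joints in colour. The points follow the dashed line of equal change, and Saa3 and Mmp3 lie below it.

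Cartilage genes fell. Of 25 measured genes of a chondrocyte list, 19 fell and 1 rose, with a median log2 ratio of -1.0 against 0.06 for all genes. The background to such counts is that 26.4% of all genes rose and 19.6% fell. The member that rose was Sox6, a partner of the cartilage regulator Sox9 (log2 ratio 0.58), a call lost without 4 of the 5 pools (16-week replicate 1 being the exception), without the filter on dim probe sets and with the muscle covariate, and with the erythroid covariate its ratio was -0.17. Col2a1 had a log2 signal of 13.77 and 14.19 at 2 weeks and 11.74, 12.21 and 11.48 at 16 weeks, a 4.51-fold fall (log2 ratio -2.17, SE 0.36, adjusted p = 0.000117). Col9a1, whose product coats the type II fibril, went from 12.76 and 13.00 to 9.37, 10.13 and 8.26, a 12.3-fold fall (log2 ratio -3.62, SE 0.57, adjusted p = 7.06e-05). The pools of both genes were apart, and 16-week replicate 3 was the lowest. Acan, the core protein of aggrecan, had 12.01 and 12.29 at 2 weeks and 10.91, 10.68 and 10.58 at 16 weeks (log2 ratio -1.42, SE 0.21, adjusted p = 4.05e-05). Hapln1, the link protein that holds aggrecan on hyaluronan, fell 4.09-fold, Matn3 (matrilin 3) 4.25-fold and Col11a1 3.92-fold. Comp, shared by cartilage and tendon, fell 1.65-fold, a call lost with the erythroid covariate and without 2-week replicate 3 (log2 ratio -0.52, adjusted p = 0.0908). Prg4 did not pass the test (log2 ratio -0.37, adjusted p = 0.0998). In sham joints 23 of the 25 list members fell and 1 rose, with a median of -1.01, beside 16.7% and 16.9% of all genes there.

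Genes of cartilage on its way to bone were also lower at 16 weeks. Of 7 measured genes of hypertrophic chondrocytes and mineralisation 6 fell, 3 without 2-week replicate 3 and 2 with the erythroid covariate. Col10a1, the collagen made by hypertrophic chondrocytes, had a log2 signal of 10.84 and 11.75 at 2 weeks and 9.18, 9.01 and 8.92 at 16 weeks (log2 ratio -2.26, SE 0.38, adjusted p = 0.000116). Mmp13, the collagenase of cartilage and bone, had 13.95 and 14.08 and then 13.01, 12.77 and 12.63 (log2 ratio -1.22, SE 0.20, adjusted p = 0.000107). Both genes separated the groups, and 2-week replicate 3 was the higher pool for each. The median of the list was -0.61 in DMM joints and -1.21 in sham joints, and its levels at 16 weeks were 10.61 to 10.83 in DMM pools and 10.21 to 10.35 in sham pools.

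Of 16 measured osteoblast and osteocyte genes, 9 fell and 1 rose, with 4 that fell under the erythroid covariate. Ibsp (bone sialoprotein) had a log2 signal of 13.96 and 14.10 at 2 weeks and 13.31, 13.03 and 12.93 at 16 weeks (log2 ratio -0.94, SE 0.17, adjusted p = 0.000254). Col1a1, the main collagen of bone and fibrous tissue, fell 1.83-fold, and Dmp1 fell 2.27-fold, a call lost with the erythroid covariate. The gene that rose was Sost, the Wnt inhibitor of osteocytes (log2 ratio 0.64), which lost its call without 16-week replicate 3, without either 2-week pool and with the erythroid covariate (adjusted p of 0.0509 to 0.11). Of 14 measured osteoclast genes 3 rose and 3 fell, near the 26.4% and 19.6% of all genes, with a median of -0.06. Ctsk, the collagen-degrading protease of osteoclasts, fell from 13.42 and 13.62 to 13.02, 12.62 and 12.70 (log2 ratio -0.74, SE 0.18, adjusted p = 0.00269), and Tnfsf11 (RANKL, which drives osteoclast formation) fell 2.48-fold. Neither of these calls, nor that of Nfatc1, a transcription factor of osteoclasts, held with the erythroid covariate. The genes that rose were Itgb3, Car2 and Ostm1 (log2 ratios 0.89, 0.60 and 0.34), of which Car2 lost its call with that covariate.

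The matrix of fibrous tissue fell, and its collagens had the lowest median of the 42 lists. All 19 measured collagens outside cartilage fell in DMM joints, with a median log2 ratio of -1.61. In sham joints all 19 also fell, with a median of -1.56. All 19 had 16-week DMM pools below the 2-week DMM pools. Separate pools, in either direction, were found for 64.6% of all genes and for 5240 of the 5289 genes called, so that this adds little to the calls. Col12a1, on the surface of fibrils in tendon and capsule, had a log2 signal of 12.70 and 12.93 at 2 weeks and 10.92, 10.72 and 10.40 at 16 weeks (log2 ratio -2.13, SE 0.26, adjusted p = 1.13e-05). Col6a2, of the collagen around cells, fell from 13.71 and 13.92 to 12.15, 11.44 and 11.35 (log2 ratio -2.17, SE 0.31, adjusted p = 3.14e-05), and Col5a1, which sets fibril width, fell 3.67-fold. The brightest members moved less. Col3a1 fell 2.06-fold and Col1a2 1.35-fold, and both calls were lost with the erythroid covariate, under which 16 of the 19 collagens fell.

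The enzymes that finish collagen fell with it. Of 19 measured genes of collagen processing 17 fell and 0 rose, with a median of -1.11. Lox, which cross-links collagen and elastin, had a log2 signal of 12.77 and 12.56 at 2 weeks and 10.58, 10.85 and 10.70 at 16 weeks (log2 ratio -1.96, SE 0.27, adjusted p = 2.19e-05). Plod2, which hydroxylates the lysines used in cross-links, fell 3.82-fold, Pcolce, which speeds the trimming of procollagen, 3.39-fold, and Serpinh1, the chaperone of procollagen, 3.09-fold. Of 12 small leucine-rich proteoglycans, which bind collagen fibrils, 9 fell and 0 rose. Kera (keratocan) went from 11.63 and 12.21 to 8.44, 8.56 and 8.73, a 10.1-fold fall (log2 ratio -3.34, SE 0.44, adjusted p = 1.85e-05), and its pools did not overlap. Fmod (fibromodulin) fell 2.57-fold and Bgn (biglycan) 2.18-fold.

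Of 24 matrix glycoproteins, 21 fell and 1 rose, with a median of -1.21. Thbs1, abundant in platelets, was the member that rose (log2 ratio 0.42), a call lost without 16-week replicate 2, without 2-week replicate 2, with the erythroid covariate and as the mean of its probe sets. Postn (periostin), made by fibroblasts and the periosteum under load and in repair, had a log2 signal of 14.02 and 14.20 at 2 weeks and 11.97, 11.36 and 11.03 at 16 weeks, a 6.32-fold fall (log2 ratio -2.66, SE 0.32, adjusted p = 1.01e-05). Thbs2 fell 4.46-fold, Vcan (versican) 4.29-fold and Tnc (tenascin C) 1.77-fold. All 11 measured genes of tendon and ligament fell, with a median of -1.36. Tnmd (tenomodulin, of tendon cells) had 11.61 and 12.27 and then 9.78, 9.37 and 9.52 (log2 ratio -2.38, SE 0.38, adjusted p = 6.95e-05).

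Proteases of the matrix and their inhibitors fell together. Of 25 measured, 20 fell and 0 rose, with a median of -1.04, and with the erythroid covariate 13 fell. Mmp3 (stromelysin 1) had a log2 signal of 13.43 and 13.02 at 2 weeks and 9.70, 10.04 and 10.42 at 16 weeks, a 9.05-fold fall (log2 ratio -3.18, SE 0.58, adjusted p = 0.000248). Mmp2 (gelatinase A) went from 13.55 and 13.84 to 11.94, 11.51 and 11.60 (log2 ratio -2.01, SE 0.31, adjusted p = 6.11e-05). Mmp14, which activates Mmp2 at the cell surface, fell 3.19-fold and Adamts12 3.18-fold, with all 16-week pools of Adamts12 below 7.93, the level that the mean of a probe set had to exceed. The inhibitor Timp1 fell 3.58-fold, a call lost with the erythroid covariate. Mmp9, abundant in granulocytes and osteoclasts, did not pass the test (log2 ratio 0.10, adjusted p = 0.484).

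**Figure D2:**
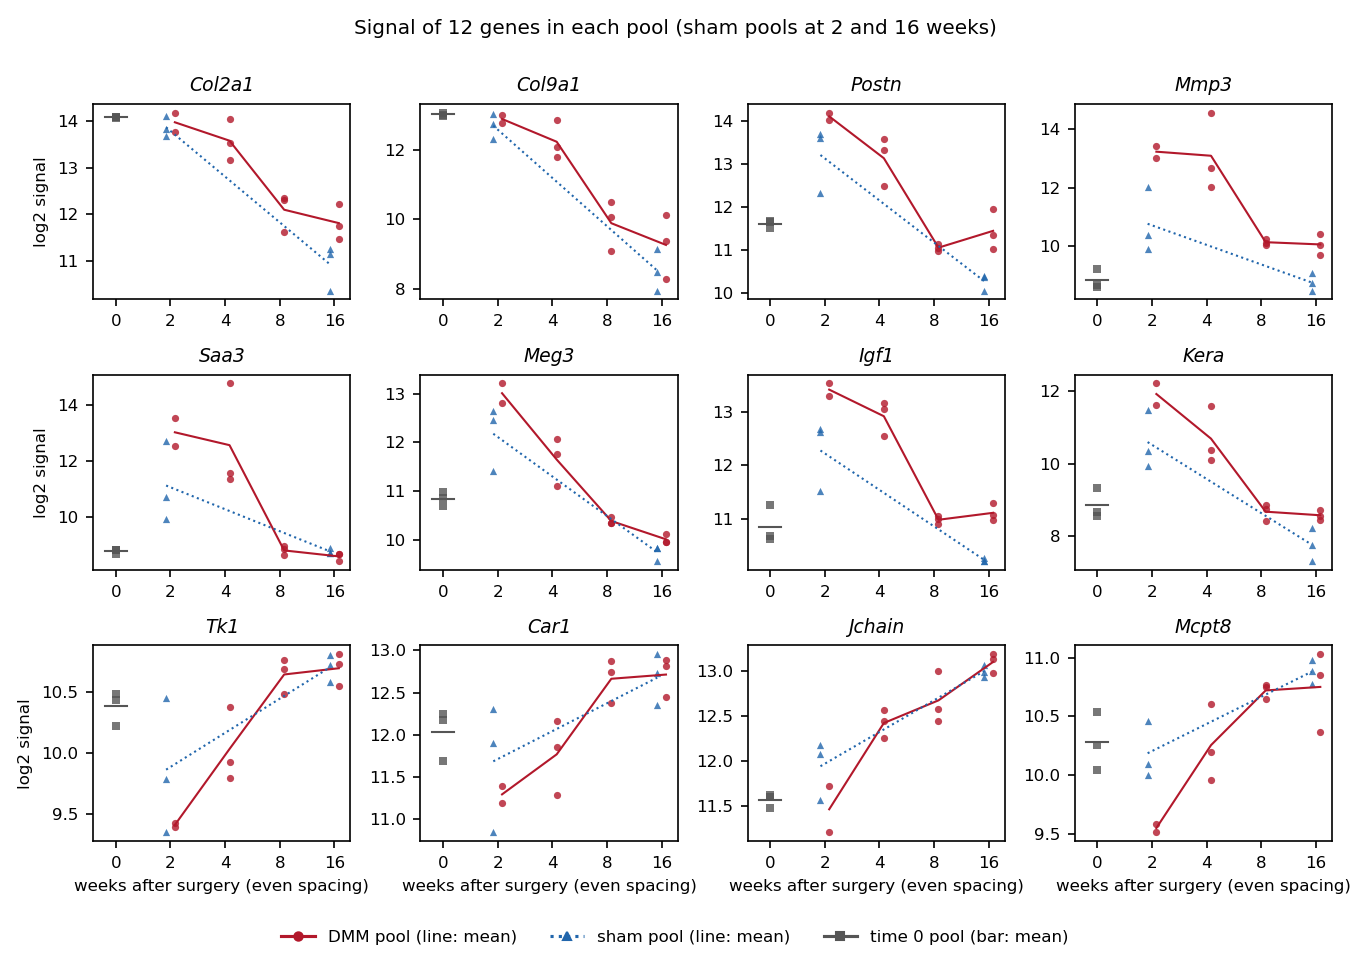
Log2 signal of 12 genes in each pool by weeks after surgery, at even spacing, for time 0, DMM and sham joints (sham at 2 and 16 weeks only). Points are pools and lines join group means. The 16-week DMM pools lie apart from the 2-week DMM pools for all 12 genes, as they do for 5240 of the 5289 genes called.

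Fibroblast and patterning genes followed the matrix. Of 18 genes of activated fibroblasts 12 fell and 2 rose, with a median of -0.85. Cthrc1, secreted by fibroblasts in repair, had a log2 signal of 12.87 and 13.36 at 2 weeks and 10.81, 10.37 and 10.09 at 16 weeks (log2 ratio -2.69, SE 0.39, adjusted p = 3.66e-05). The receptor Pdgfra fell 3.34-fold and Thy1 2.35-fold. The 2 genes that rose were Cnn2 and Myl9, of the contractile apparatus (log2 ratios 0.39 and 0.67). Of 23 transcription factors of mesenchyme and limb, 21 fell and 0 rose. Prrx1, of limb mesenchyme, fell from 11.48 and 11.82 to 10.15, 10.01 and 10.05 (log2 ratio -1.58, SE 0.21, adjusted p = 1.86e-05), Tbx18 fell 3.05-fold, Twist1 2.58-fold and Hoxa10 2.38-fold.

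Growth factor genes fell in the same pools. Of 29 ligands, receptors and binding proteins of the IGF, EGF, PDGF and FGF families 20 fell and 0 rose, with a median of -0.81. The ligand Igf1 had a log2 signal of 13.53 and 13.30 at 2 weeks and 11.30, 11.07 and 10.98 at 16 weeks, a 4.9-fold fall (log2 ratio -2.29, SE 0.30, adjusted p = 1.64e-05). Ptn (pleiotrophin, a heparin-binding growth factor) went from 10.71 and 11.05 to 8.22, 7.98 and 7.92 (log2 ratio -2.84, SE 0.32, adjusted p = 6.41e-06). Both ligands separated the groups fully. The receptor Egfr fell 2.85-fold and Igfbp3, a binding protein of IGFs, 2.85-fold.

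In the TGFβ and BMP pathway 18 of 29 genes fell and 1 rose, with a median of -0.47. The ligand Tgfb2 fell from 10.40 and 10.67 to 9.18, 8.98 and 9.20 (log2 ratio -1.42, SE 0.21, adjusted p = 5.15e-05), Tgfb3 fell 2.1-fold, and Ltbp3, which stores the latent ligand in the matrix, 2.15-fold. The receptor Tgfbr2 fell 1.72-fold and the extracellular Fstl1 3.65-fold. The gene that rose was Tgfb1 (log2 ratio 0.40), the TGFβ of blood cells and many other cells. In the Wnt pathway 12 of 25 fell and 2 rose. Among secreted antagonists, Dkk3 fell from 11.07 and 11.55 to 8.92, 8.76 and 9.12 (log2 ratio -2.38, SE 0.42, adjusted p = 0.000168) and Sfrp2 fell 3.05-fold. The receptors Fzd1 and Fzd2 fell 2.44-fold and 1.97-fold. The genes that rose were Sost and Lef1, a transcription factor of the pathway that lymphocytes also express (log2 ratio 0.81). Lef1 too lost its call without 16-week replicate 3, without either 2-week pool and with the erythroid covariate, under which its ratio was -0.08.

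Imprinted genes, expressed from 1 parental copy and known for high expression in growing tissue, all fell. The 11 measured had a median of -1.56, and 10 fell with the erythroid covariate. All 11 had separate pools, as did 5240 of the 5289 genes called. Meg3, a maternally expressed long noncoding RNA, had a log2 signal of 12.81 and 13.21 at 2 weeks and 9.96, 9.96 and 10.11 at 16 weeks, an 8.01-fold fall (log2 ratio -3.00, SE 0.27, adjusted p = 2.04e-06). Rian, from the same imprinted cluster, went from 10.26 and 10.57 to 7.49, 7.58 and 7.72 (log2 ratio -2.82, SE 0.29, adjusted p = 3.52e-06), and since its 16-week pools all lay below 7.93, the size of its ratio rests on a dim signal. The pools of each week lay close together for both. The growth inhibitors Grb10 and Cdkn1c fell 3.4-fold and 2.98-fold, and Plagl1 3.32-fold. The median of the list was -1.12 in sham joints. Genes of the endoplasmic reticulum and secretory pathway fell in part, 17 of 31 with 1 that rose, and with the erythroid covariate 6 fell and 3 rose. Kdelr3, which returns proteins to the endoplasmic reticulum, fell 2.91-fold and Creb3l1, a transcription factor of secretory cells, 1.96-fold, a call lost with that covariate. The gene that rose was Ddit3, a stress-induced transcription factor (log2 ratio 0.48).

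Inflammatory genes fell in part. Of 19 measured genes of the acute phase and inflammation 9 fell and 1 rose, with a median of -0.38, and with the erythroid covariate 3 fell and 3 rose. Orm1, an acute phase glycoprotein, was the member that rose (log2 ratio 0.79), a call lost without 2-week replicate 2, without 16-week replicate 1 and with the covariate for RNA integrity. Below Saa3, Tnfaip6 (a hyaluronan-binding protein induced by inflammation) fell 3.99-fold, a call lost with the erythroid covariate. Socs3, induced by IL-6 type cytokines, had a log2 signal of 11.07 and 11.00 at 2 weeks and 9.95, 9.61 and 9.29 at 16 weeks (log2 ratio -1.42, SE 0.24, adjusted p = 0.000112). The cytokine receptors Il1r1 and Osmr fell 1.87-fold and 2.54-fold, the second losing its call with the erythroid covariate. For Saa3 the sham ratio was -2.35 (adjusted p = 0.0117), with 10.71, 12.70 and 9.92 in sham pools at 2 weeks and 8.69, 8.72 and 8.87 at 16 weeks. The DMM and sham pools overlapped at 2 weeks, the DMM pools lay just below the sham pools at 16 weeks, and the difference of the courses was -2.08 (95% interval -4.17 to 0.01, adjusted p = 0.905).

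Among chemokines and their receptors 6 of 20 fell and 4 rose, and 2 fell with the erythroid covariate. Ccl2, which draws monocytes, had a log2 signal of 9.26 and 9.28 at 2 weeks and 8.44, 8.45 and 8.37 at 16 weeks (log2 ratio -0.85, SE 0.13, adjusted p = 5.57e-05). In sham joints its ratio was -0.15, and the difference of the courses was -0.70 (95% interval -1.06 to -0.33), with an adjusted p of 0.639. Ccl8 fell from 11.18 and 9.72 to 8.58, 8.90 and 8.45 (log2 ratio -1.81, SE 0.35, adjusted p = 0.000441), with 2-week replicate 2 the highest pool. The genes that rose were Ccl5, Cxcr4, Ccl6 and Cx3cl1 (log2 ratios 0.75, 0.51, 0.48 and 0.39), and with the erythroid covariate the calls of Ccl5, Ccl6 and Cx3cl1 were lost. Cx3cl1 also lost its call without 2-week replicate 2, without 16-week replicate 1 or 2 and as the mean of its probe sets. Of 16 complement genes 8 fell and 1 rose, with 5 that fell without 2-week replicate 2 and 4 with the erythroid covariate. The proteases C1ra and C1s1 of the classical pathway fell 2.31-fold and 2.68-fold, the receptor C3ar1 fell 3.07-fold, and the gene that rose was Cfp (properdin, stored in granulocytes; 1.46-fold). Its call was lost when the gene was taken as the mean of its probe sets.

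Counts of macrophage genes were near the 19.6% of all genes that fell and the 26.4% that rose. Of 27 measured, 7 fell and 5 rose, with a median of -0.02. Without 2-week replicate 2 the number that fell was 2, without 16-week replicate 1 it was 4 and with the erythroid covariate 1. Without 2-week replicate 3 or without 16-week replicate 3, the number that rose was 3. Cd14, a receptor of bacterial lipopolysaccharide, fell 2.07-fold and lost its call with the erythroid covariate, while Fcer1g, a signalling chain of Fc receptors, rose 1.39-fold. The others that rose were Spic, Tyrobp, Mpeg1 and Fcgr3 (log2 ratios 0.87, 0.39, 0.36 and 0.33), of which Spic lost its call without 2-week replicate 3, without 16-week replicate 3 and with the erythroid covariate, and Fcgr3 without any pool but 16-week replicate 2 and with the covariate for RNA integrity. Lyz2, the lysozyme of macrophages and granulocytes, had a log2 signal of 14.88 and 15.03 at 2 weeks and 14.94, 14.98 and 15.20 at 16 weeks, and its pools overlapped. Of 23 interferon-response genes 0 fell and 1 rose (Rsad2, an antiviral enzyme, log2 ratio 0.71). Its call was lost without any pool but 16-week replicate 1, with the muscle covariate and with the replicate block, and with the erythroid covariate its ratio was -0.17.

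Cell cycle genes rose as a group. Of 44 measured, 42 rose and 0 fell, with a median log2 ratio of 0.80. The number that rose was 39 to 44 with 1 pool left out and 34 with the erythroid covariate. Tk1 (thymidine kinase, of DNA synthesis) had a log2 signal of 9.42 and 9.39 at 2 weeks and 10.55, 10.73 and 10.81 at 16 weeks (log2 ratio 1.29, SE 0.21, adjusted p = 0.000108). Aurka and Aurkb, kinases of mitosis, rose 2.03-fold and 2.06-fold, and Ube2c, which helps mark cyclin B for destruction, went from 11.70 and 11.78 to 12.64, 12.84 and 12.82 (log2 ratio 1.03, SE 0.15, adjusted p = 4.65e-05). Ccnb2 (cyclin B2) rose 2.03-fold. Mki67 and Pcna, the brightest members, rose 1.66-fold and 1.65-fold. The mean of the list was 10.50 and 10.43 at 2 weeks and 11.12, 11.29 and 11.33 at 16 weeks, so that it moved with the erythroid list. In sham joints 42 of the 44 rose and 0 fell (median 0.57), beside 16.9% and 16.7% of all genes there.

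Promoters of late cell cycle genes are known for CCAAT boxes, bound by NF-Y, and for the cell cycle homology element TTTGAA. Since the list was made of cell cycle genes, its share of these motifs does not rest on the expression values. In RefSeq promoters of GRCm38.p6, 250 bases before to 50 after the start, 36 of the 44 genes had an entry. On either strand CCAAT was present in 30 of these 36 (83.3%), TTTGAA in 19 (52.8%) and both in 19 (52.8%). Of the 9293 promoters of all genes tested, 38.1% held CCAAT, 12.0% held TTTGAA and 4.94% held both. For the 2483 promoters of genes that rose, the shares were 40.9%, 14.5% and 7.05%, and for all 27025 promoters 37.9%, 18.1% and 7.12%. The 4 members with the highest ratio and an entry follow, with both motifs in capitals on either strand, where neighbouring matches may share bases. They are Tk1 (chr11:117825965-117826264, minus strand), Ube2c (chr2:164769679-164769978, plus strand), Ccnb2 (chr9:70421505-70421804, minus strand) and Aurka (chr2:172370521-172370820, minus strand).
Tk1: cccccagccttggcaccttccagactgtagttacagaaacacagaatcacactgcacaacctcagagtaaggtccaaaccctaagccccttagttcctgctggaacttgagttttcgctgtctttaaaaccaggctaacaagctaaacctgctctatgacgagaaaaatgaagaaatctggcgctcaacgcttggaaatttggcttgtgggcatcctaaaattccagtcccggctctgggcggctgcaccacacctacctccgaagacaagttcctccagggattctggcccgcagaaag
Ube2c: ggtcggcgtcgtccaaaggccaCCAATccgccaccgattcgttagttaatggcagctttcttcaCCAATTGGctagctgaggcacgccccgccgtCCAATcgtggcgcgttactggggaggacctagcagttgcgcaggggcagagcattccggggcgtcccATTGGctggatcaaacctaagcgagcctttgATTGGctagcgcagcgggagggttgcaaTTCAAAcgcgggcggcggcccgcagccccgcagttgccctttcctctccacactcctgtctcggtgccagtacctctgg
Ccnb2: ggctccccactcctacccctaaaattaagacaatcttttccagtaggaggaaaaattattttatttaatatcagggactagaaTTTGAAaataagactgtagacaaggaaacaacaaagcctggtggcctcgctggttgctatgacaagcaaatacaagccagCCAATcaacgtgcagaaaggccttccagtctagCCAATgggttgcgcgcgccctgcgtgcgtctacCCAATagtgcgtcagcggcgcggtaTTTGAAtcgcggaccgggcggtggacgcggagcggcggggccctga
Aurka: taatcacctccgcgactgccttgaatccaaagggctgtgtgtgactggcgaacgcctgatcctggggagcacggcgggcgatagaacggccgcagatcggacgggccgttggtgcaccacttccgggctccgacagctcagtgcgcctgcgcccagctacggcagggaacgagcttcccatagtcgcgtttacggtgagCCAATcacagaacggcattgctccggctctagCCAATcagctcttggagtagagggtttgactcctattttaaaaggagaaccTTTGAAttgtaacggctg
Ube2c held 6 CCAAT and 1 TTTGAA, Ccnb2 3 and 2, and Aurka 2 and 1, while these letters are not in the window of Tk1.

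Erythroid genes rose. Of 25 measured, 24 rose and 1 fell, with a median of 0.97, and 10 rose without 2-week replicate 3. The member that fell was Add2, of the red cell membrane skeleton (log2 ratio -0.36), a call lost without 2-week replicate 3, without 16-week replicate 1, with the erythroid covariate and in a fit of the compared groups alone. As the mean of its probe sets Add2 was called higher (log2 ratio 0.50, adjusted p = 0.0069), so that its direction depends on the probe set. Car1 had a log2 signal of 11.20 and 11.39 at 2 weeks and 12.44, 12.81 and 12.89 at 16 weeks (log2 ratio 1.42, SE 0.38, adjusted p = 0.00576). Klf1, the transcription factor of red cell precursors, went from 11.17 and 11.01 to 11.98, 12.41 and 12.56 (log2 ratio 1.23, SE 0.30, adjusted p = 0.00268). In both genes 16-week replicate 1 was the lowest of its group, as it was for the whole list. The blood group genes Rhd and Kel rose 2.54-fold and 2.34-fold. By construction the erythroid covariate removes this difference, and with it 2 members rose.

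Granulocytes and their precursors were also represented. Of 21 neutrophil granule genes 12 rose and 0 fell, with a median of 0.43, but 3 rose without 2-week replicate 2. Stfa2l1, a stefin of neutrophil precursors, rose from 9.47 and 9.47 to 10.70, 10.42 and 10.58 (log2 ratio 1.10, SE 0.18, adjusted p = 8.04e-05). S100a8 and S100a9, abundant proteins of the mature neutrophil, did not pass the test (log2 ratios 0.06 and 0.09). In sham joints 2 of the 21 granule genes rose and 0 fell (median 0.24), beside 16.9% and 16.7% of all genes there. Of 11 genes of mast cells and eosinophils (and basophils) 9 rose and 0 fell, with 7 to 9 that rose when 1 pool was left out and 8 with the erythroid covariate. Mcpt8, the protease of basophils, had a log2 signal of 9.58 and 9.51 at 2 weeks and 11.03, 10.37 and 10.86 at 16 weeks (log2 ratio 1.20, SE 0.18, adjusted p = 5.54e-05). Epx, the peroxidase of eosinophils, rose 1.93-fold and Fcer1a, a chain of the IgE receptor, 2.29-fold from a 2-week signal below 7.93 in both pools. The pools of these genes did not overlap between the weeks, and 16-week replicate 2 was the lowest of its group for Mcpt8 and Fcer1a.

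Antibody genes rose furthest among lymphoid genes. Of 12 plasma cell genes 7 rose and 2 fell, and 3 rose with the erythroid covariate. The highest ratio was that of a kappa light chain variable segment, which had a log2 signal of 7.16 and 6.90 at 2 weeks and 8.85, 9.61 and 9.25 at 16 weeks (log2 ratio 2.20, SE 0.31, adjusted p = 2.72e-05). Both 2-week pools lay below 7.93, so that the size of this ratio rests on a dim signal. Probe sets of antibody segments can cross-detect related segments, so that these values stand for a family. Igha, the heavy chain of IgA, went from 12.56 and 11.85 to 13.89, 13.65 and 13.66 (log2 ratio 1.53, SE 0.31, adjusted p = 0.000666), and Ighm, of IgM, from 12.45 and 12.35 to 12.88, 14.46 and 14.40 (log2 ratio 1.52, SE 0.37, adjusted p = 0.00282). The 16-week pools of Ighm were spread, with replicate 1 the lowest, and both calls were lost with the covariate. The members that fell were Sdc1, a surface proteoglycan that fibroblasts also express (2.79-fold), and Fkbp11, of secretory cells (log2 ratio -0.82), a call lost with the covariate.

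Of 21 genes of B cells and their precursors 3 rose and 1 fell, although the median was 0.52. The genes that rose were Ighm, Bank1 and Dntt (log2 ratios 1.52, 0.98 and 0.52, the last -0.09 with the erythroid covariate), and Ebf1, a transcription factor that stromal cells also express, fell (log2 ratio -0.62), a call lost without 2-week replicate 2. The count that rose was 13 in a fit of the compared groups alone, 9 with a covariate for RNA integrity, 6 with array weights, 5 without 16-week replicate 1 and 0 with the erythroid covariate. Ms4a1 (CD20) had 9.76 and 9.54 and then 10.08, 10.28 and 10.73 (log2 ratio 0.71, adjusted p = 0.151). Of 16 genes of T and NK cells 6 rose and 1 fell, 3 rising with the erythroid covariate. The adaptor Lat rose from 8.79 and 8.69 to 9.50, 9.57 and 9.37 (log2 ratio 0.74, SE 0.08, adjusted p = 5.38e-06), and Cd3d, of the T cell receptor, rose 1.58-fold from 2-week signals that were both below 7.93. The member that fell was Thy1, which fibroblasts also express. Of 19 genes of antigen presentation 8 rose and 1 fell, 5 rising without 16-week replicate 3 or with the erythroid covariate. The gene that fell was Ctss, a lysosomal protease (log2 ratio -0.40), a call lost without 2-week replicate 2 and with that covariate. The proteasome subunits Psmb8 and Psmb9 rose 1.56-fold and 1.53-fold, and Cd74, the invariant chain, did not pass the test (log2 ratio 0.06).

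Beside the 26.4% of all genes that rose and the 19.6% that fell, the counts of osteoclast, macrophage, chemokine, adipocyte, glycolysis, B cell, interferon-response, skeletal muscle and Schwann cell genes were near or under the background, and nothing about those lists is read from them.

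**Figure D3:**
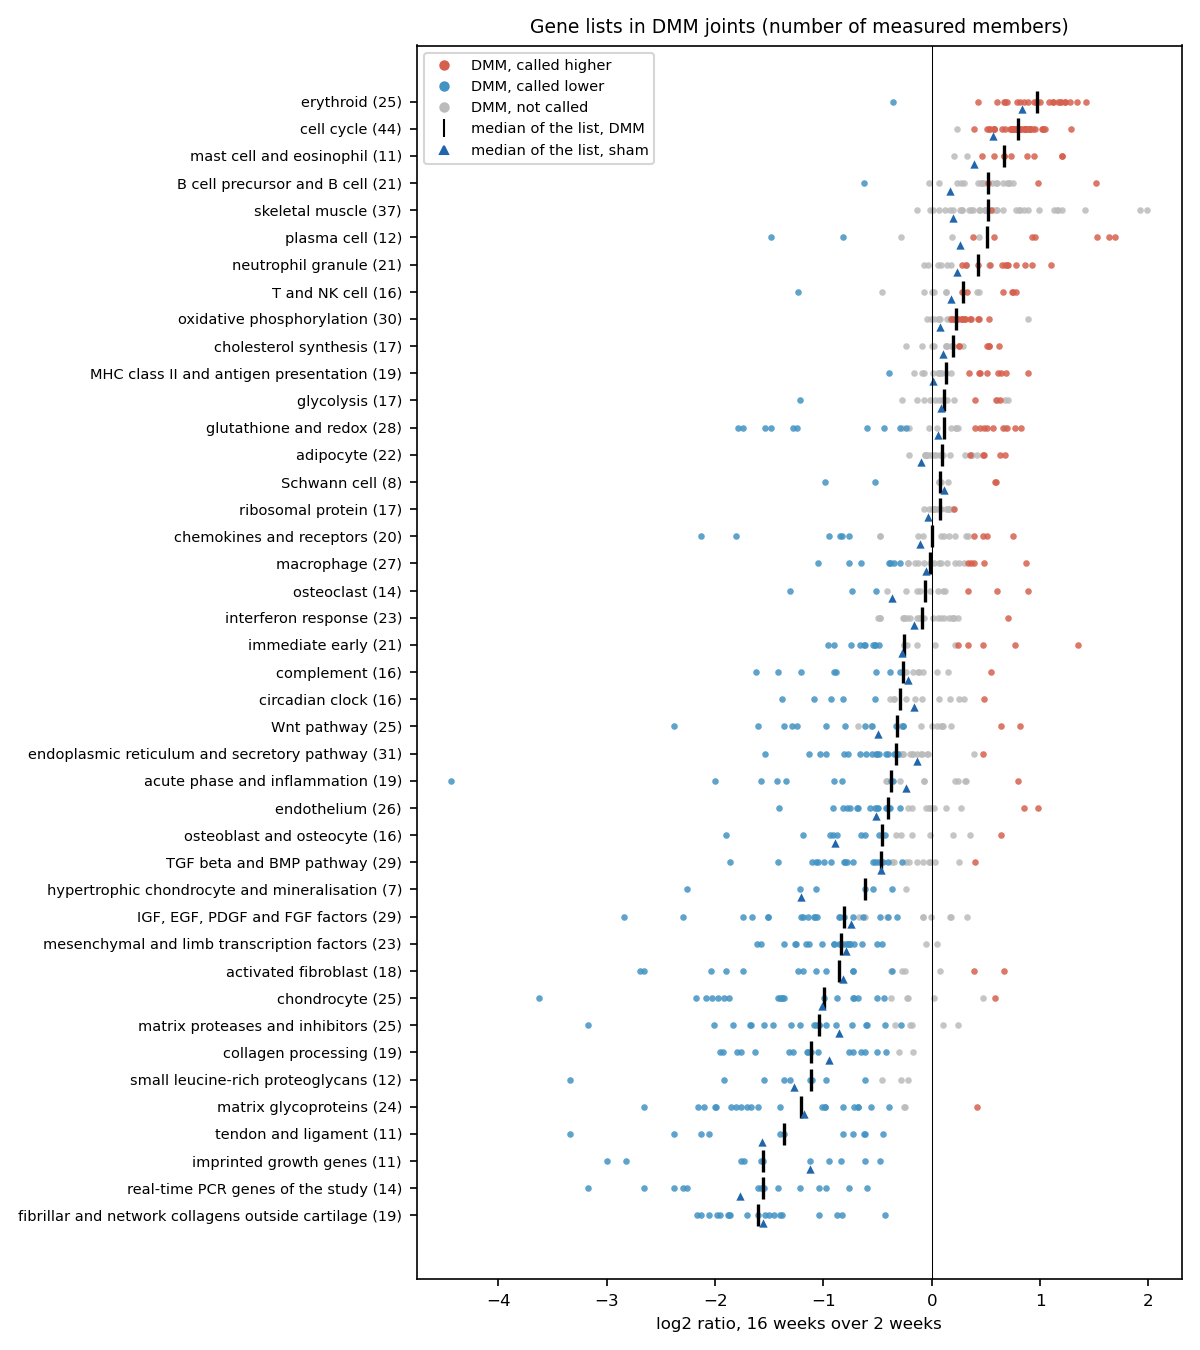
Log2 ratio of 16 over 2 weeks in DMM joints for each measured member of 42 gene lists, coloured by its call, with the list median as a black bar and the sham median as a triangle. Lists of matrix genes lie towards the bottom, led by the collagens at -1.61, and the erythroid list at the top at 0.97.

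Skeletal muscle genes were spread widely between pools. Of 37 measured, 1 rose and 0 fell, with a median of 0.52, and 5 rose in a fit of the compared groups alone. The 1 called in the fit of all arrays was Tnnt1, a troponin of slow fibres (log2 ratio 0.55). With the muscle covariate 3 rose and 4 fell. Mb (myoglobin) had a log2 signal of 11.06 and 9.11 at 2 weeks and 12.96, 11.68 and 11.59 at 16 weeks (log2 ratio 1.99, SE 0.99, adjusted p = 0.114). Genes of oxidative phosphorylation, abundant in muscle, rose by small amounts. Of 30 measured, 15 rose and 0 fell, with a median of 0.23. This count fell to 4 without 2-week replicate 3 or without 16-week replicate 3, to 5 without 16-week replicate 1 and to 9 without 2-week replicate 2. It was 7 with the muscle covariate, 9 in a fit of the compared groups alone, 7 without the filter on dim probe sets and 0 with the erythroid covariate. In sham joints 0 of the 30 rose and 0 fell (median 0.08), beside 16.9% and 16.7% of all genes there. The test of the difference of the courses called 0 probe sets. Of 17 glycolysis genes 3 rose (Slc2a4, Hk1 and Hk2, log2 ratios 0.63, 0.59 and 0.40) and 1 fell (Fbp2, -1.22). Hk1 alone of these 4 kept its call with each pool left out, while 1 rose without 16-week replicate 1 or without the filter and 5 rose as means of probe sets.

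Of 22 adipocyte genes 5 rose and 0 fell, with a median of 0.10. The count was 2 without either 2-week pool, without 16-week replicate 3 or without the filter, and 3 without 16-week replicate 2 or with the replicate block. Beside Pparg these were Slc2a4, Pnpla2, Dgat2 and Lipe (log2 ratios 0.63, 0.48, 0.47 and 0.36), and both 2-week signals of Lipe were below 7.93. Pparg, the regulator of fat cells, rose from 8.57 and 8.25 to 8.90, 9.06 and 9.32 (log2 ratio 0.68, SE 0.13, adjusted p = 0.000492), but Fabp4, the brightest fat marker with Car3, did not pass the test (log2 ratio -0.0036, adjusted p = 0.988). Endothelial genes fell in part, 16 of 26, with 2 that rose, 9 that fell without 2-week replicate 2 and 6 with the erythroid covariate. Cdh5, the cadherin of endothelial junctions, fell from 10.81 and 10.56 to 9.91, 9.82 and 9.88 (log2 ratio -0.82, SE 0.13, adjusted p = 8.15e-05), and Egfl7 fell 1.89-fold. Vwf, shared by endothelium and megakaryocytes, rose 1.8-fold, and Stab2, a receptor of sinusoids, 1.98-fold, a call lost with the covariate. Of 8 Schwann cell genes 2 rose (Mbp and Cnp, log2 ratios 0.59 and 0.59) and 2 fell (Pmp22 and Ncmap, -0.99 and -0.52). The call of Cnp was lost without any pool but 16-week replicate 1, with the muscle covariate, without the filter and as the mean of its probe sets, and its ratio was -0.11 with the erythroid covariate.

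Cartilage and fibrous tissue genes differed in the step from time 0 to 2 weeks, and both then fell through week 8. The mean log2 signal of the chondrocyte list was 11.80 in time 0 joints and 11.79 2 weeks after DMM, then went through 11.43 (week 4) and 10.85 (week 8) to 10.70 (week 16). The 2-week pools overlapped those of unoperated joints, which ranged from 11.69 to 11.92, and the 8- and 16-week pools lay below both. Sham pools had 11.49 to 11.94 at 2 weeks, which overlapped the DMM pools. At 16 weeks they had 10.16 to 10.43, below the DMM pools at 10.57 to 10.80. The mean of the collagens outside cartilage was 11.18 in time 0 joints and 12.63 2 weeks after DMM, then went through 12.12 (week 4) and 10.99 (week 8) to 11.07 (week 16). Here the 2-week pools, 12.56 to 12.70, lay above the time 0 pools, 11.05 to 11.34, and the 16-week pools, 10.93 to 11.28, overlapped them. Tendon and ligament genes and matrix proteases had the second shape, with means of 11.19 and 10.68 at time 0, 12.64 and 11.59 at 2 weeks, and 11.19 and 10.59 at 16 weeks.

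Imprinted genes were highest at 2 weeks and lowest at 16 weeks, with means of 10.17 at time 0, 11.11 at 2 weeks, 9.75 at 8 weeks and 9.61 at 16 weeks. Among DMM and time 0 pools, cell cycle genes were lowest at 2 weeks, at 10.47 against 11.13 at time 0 and 11.25 at 16 weeks, and the erythroid list had 11.07, 11.76 and 12.00 at the same times. Most of the span was passed by 8 weeks. For the genes called lower, the median difference from 2 weeks was -0.20 at 4 weeks, -0.51 at 8 weeks and -0.51 at 16 weeks, and for those called higher 0.21, 0.40 and 0.42. These differences all share the 2-week pools that chose the genes, and they were not tested. The collagens had 11.40 to 12.19 in sham pools at 2 weeks and 10.22 to 10.58 at 16 weeks, both below the DMM pools of the same week, and the erythroid list 10.71 to 11.86 and 11.90 to 12.25, which overlapped them.

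**Figure D4:**
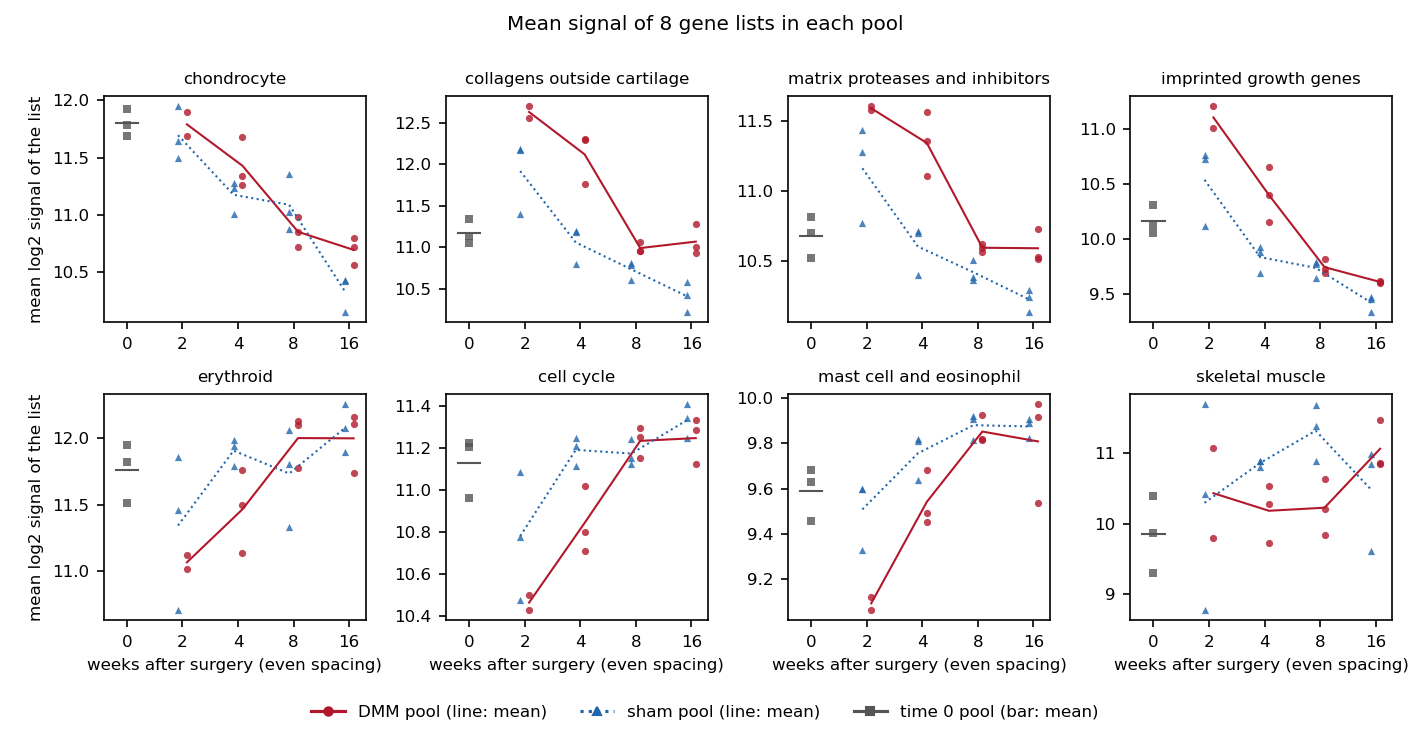
Mean log2 signal of 8 gene lists in each pool by weeks after surgery, at even spacing, with lines through the group means. The chondrocyte list starts at its time 0 level and declines, the collagens outside cartilage start above theirs, and the skeletal muscle pools are widely spread.

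Genes that the study also measured by real-time PCR were taken by it from genes tested in an earlier sub-study of the same work, so that the choice is not independent of the series. Of 14 with a measurable signal, all 14 fell, with a median of -1.56, and 9 fell with the erythroid covariate. They include Mmp3, Postn, Igf1, Dkk3, Sfrp2, Acan and Col10a1, given above. Aspn (asporin, a small leucine-rich proteoglycan) fell from 13.24 and 13.63 to 12.35, 11.54 and 11.78 (log2 ratio -1.55, SE 0.30, adjusted p = 0.000373). Ackr3, a chemokine-scavenging receptor, fell 1.69-fold, and Htra1, a secreted serine protease, 1.97-fold, and both calls were lost without 2-week replicate 3 and with the erythroid covariate. Il33, an alarm cytokine, fell 2.99-fold, with 2-week replicate 2 the higher pool and no call without it (log2 ratio -0.99, adjusted p = 0.072) or with the erythroid covariate (adjusted p = 0.0621). Adamts5, an aggrecan-cleaving protease, had a log2 signal of 10.68 and 10.52 at 2 weeks and 9.93, 10.06 and 10.01 at 16 weeks (log2 ratio -0.60, SE 0.22, adjusted p = 0.0347), and its call was lost when any of the 5 pools was left out (adjusted p of 0.053 to 0.171), with the replicate block and with the muscle covariate, and with the erythroid covariate the ratio was -0.02.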

How the data were processed

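Per the study's methods, RNA pools were hybridised to Affymetrix mouse genome arrays with 1 colour, and the deposited log2 signals of 45101 probe sets had been brought to a common scale by the authors with systematic variation normalization. They were used as deposited, since the values hold no scanner intensities or detection calls. Scanner settings, scan batches and software versions are not given in the sources used here.

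A linear model with 1 coefficient for each of the 9 conditions was fitted over all 26 arrays (17 residual degrees of freedom) with limma 3.58.1 in R 4.3.3. It covered the 22452 probe sets whose mean log2 signal exceeded 7.93, the median of all values. The comparisons were DMM at 16 against 2 weeks, sham at 16 against 2 weeks, and the difference of both changes. A probe set was called at a Benjamini-Hochberg adjusted p under 0.05, over all probe sets of the comparison, and the standard errors and 95% intervals are the moderated ones. The intervals are not adjusted for the number of probe sets, so that an interval without 0 is not a call. The study's methods kept probe sets by detection, by a minimum change against controls at 1 or more times and by likeness of the profile between replicate courses, without a test between weeks, and so this test was chosen here. On simulated data of 22452 probe sets with 100 changed at each size, the DMM comparison recovered 68 changes of 0.5 and 97 of 1 (log2), with 8 false calls. The simulated probe sets varied independently of each other, and far fewer were changed than the 42.2% called in the data. These figures check the fit and do not give the error rate of the calls reported here. The number of pools limits the precision, and a two-sided exact rank-sum test of 2 pools against 3 cannot go below p = 0.2.

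Probe sets were named from the platform annotation, which gives 1 symbol for 34958 of them, more than 1 for 932 and none for 9211. For each gene the brightest of its probe sets with 1 symbol was used. Of 2255 called genes with several tested probe sets, all of them had the same sign for 1876. The genes named are the 12 highest and 12 lowest ratios among called genes, of each list the 2 brightest and the 6 with the largest change, and the real-time PCR genes. Other genes, named to account for a count, were chosen after their values were seen. The comparison, the 42 lists and the rule were chosen with earlier results of these data known. Of 1088 list entries 995 were matched to a probe set, and 804 distinct genes were tested.

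The alternatives were no filter on dim probe sets, quantile normalization, a fit of the compared groups alone, array weights, an intensity trend with a robust prior, a replicate block, covariates for muscle (the mean of its list) and RNA integrity (Gapdh 3′ minus 5′ signal), an added log2 threshold of 0.5, each gene as the mean of its probe sets, and each pool left out. A covariate for the erythroid list mean was added after the data were seen. The erythroid mean is itself part of the outcome, so this covariate can remove a difference that belongs to the weeks. All arrays were checked for 3′ bias, and the actin 3′ minus 5′ difference was highest in DMM 2-week replicate 2 (1.14). The Gapdh difference of that pool was 0.49, below the 0.56 of DMM 8-week replicate 1. The covariate for RNA integrity used Gapdh alone, so the part of the actin difference in the results was not tested.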

Additional observations from a re-analysis of the deposited data

How the results depend on the processing

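The count of 9466 probe sets called in DMM joints became 4075 with an added log2 threshold of 0.5 (1936 higher and 2139 lower), which ends every call of a ratio under 0.5, and 4735 with the erythroid covariate, chosen after seeing the data (2940 higher and 1795 lower). It ranged from 6465 to 8756 with 1 pool left out, where a 2-week group of 1 pool is assumed to vary like the other groups, and from 8531 to 11445 under the other alternatives. The sham count of 6901 became 2587 in a fit of the compared groups alone, 12948 with array weights, 2448 with the log2 threshold and 3058 with the erythroid covariate, and ranged from 3458 (without sham 2-week replicate 3; 4292 without sham 16-week replicate 1) to 8965 with 1 pool left out. The difference of the courses called 0 probe sets under each alternative, with 836 to 2489 at an unadjusted p under 0.05. A replicate block on the numbers in the titles gave 9286 DMM, 7556 sham and 0 difference calls. Correlations of deviations ranged from -0.22 to 0.54 at shared numbers and from -0.51 to 0.38 at unlike numbers. They do not settle whether the numbers pair pools, and the main fit did not use the numbers. Of 304 named genes 239 were called, 143 of them in every setting, and 81 of the 96 that lost a call did so with the erythroid covariate. That covariate turned the ratio of 13 called genes named by the rule, to -0.034 for Atp5b, -0.13 for Btg2, -0.12 for Cd5l, -0.11 for Cnp, -0.094 for Cyp2j13, -0.24 for H2-Ob, -0.17 for Nr4a2, -0.21 for Ppp2r2cos, -0.080 for Rec114, -0.17 for Rsad2, -0.059 for Slc2a4, -0.17 for Slc4a1 and -0.085 for Trim10. It also turned 20 other called list members, among them Sox6 (-0.17), Lef1 (-0.08), Dntt (-0.09) and Alas2 (-0.45). With each gene as the mean of its probe sets Nr4a2 had -0.64 and Add2 0.50, and both were called in that direction. The cause was not tested.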

Other observations

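Lists outside the main tissues are given beside the 26.4% of all genes that rose and the 19.6% that fell. No change of the clock, redox or cholesterol synthesis lists as a whole is read from their counts. Of 16 clock genes 5 fell and 1 rose, and 3 fell without either 2-week pool, while 3 rose with the erythroid covariate. Usp2 was the member that rose (log2 ratio 0.49), a call lost without either 2-week pool, without 16-week replicate 1, with array weights, in a fit of the compared groups alone, with the covariate for RNA integrity and as the mean of its probe sets. Nr1d2, a repressor of the clock, had a log2 signal of 11.74 and 11.88 at 2 weeks and 11.24, 10.14 and 10.79 at 16 weeks (log2 ratio -1.08, SE 0.28, adjusted p = 0.00469), with 16-week replicate 2 the lowest. The hours at which the pools were collected are not given in the sources used here. Of 21 immediate early genes 10 fell and 5 rose, 5 falling without 2-week replicate 3 or with the erythroid covariate, and 0 rising without 2-week replicate 2 and 2 rising without 2-week replicate 3, 16-week replicate 2 or 16-week replicate 3 or with that covariate. The genes that rose were Nr4a2, Btg2, Dnajb1, Ier2 and Myc (log2 ratios 1.35, 0.77, 0.47, 0.33 and 0.24), and the ratios of Nr4a2 and Btg2 were -0.17 and -0.13 with the erythroid covariate. As the mean of its probe sets Nr4a2 was called lower (log2 ratio -0.64, adjusted p = 2.38e-05), so that its direction depends on the probe set. Its call as higher was also lost without any pool but 16-week replicate 1. Junb fell 1.94-fold and Dusp1 1.58-fold, the second losing its call without 2-week replicate 3.

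Of 28 redox genes 10 fell and 9 rose, against 19.6% and 26.4% of all genes. With the erythroid covariate 4 fell and 3 rose, and without 2-week replicate 3 the number that rose was 5. The metallothionein Mt2, which binds zinc, fell from 13.67 and 13.51 to 12.20, 11.58 and 11.62 (log2 ratio -1.79, SE 0.31, adjusted p = 0.000142), and the peroxidases Gpx7 and Gpx8 of the endoplasmic reticulum fell 3.34-fold and 2.8-fold. Of 17 genes of cholesterol synthesis 6 rose and 0 fell, against 26.4% and 19.6% of all genes, and 3 rose without 2-week replicate 3. Idi1, an isomerase of that pathway, rose 1.44-fold. Of 17 ribosomal protein genes 1 rose and 0 fell, under the shares of all genes. It was Rpl8 (log2 ratio 0.21), whose call was lost without 2-week replicate 2, without 16-week replicate 3, without the filter, in a fit of the compared groups alone and with the erythroid covariate.

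Platelet genes were noticed after their values were seen. Ppbp, a chemokine stored in platelets, had a log2 signal of 13.70 and 13.76 in DMM pools at 2 weeks and 14.32, 14.40 and 14.42 at 16 weeks (log2 ratio 0.65, SE 0.07, adjusted p = 5.31e-06). In sham pools it had 14.14, 14.03 and 13.92 and then 14.34, 14.24 and 14.34 (log2 ratio 0.28, adjusted p = 0.00292). The difference of the courses was 0.37 (95% interval 0.18 to 0.57), with an adjusted p of 0.639 in limma. For Pf4, another platelet chemokine, the ratios were 0.46 and 0.16, for Clec1b, a platelet receptor, 1.30 and 0.74, and for Itgb3, an integrin chain of platelets and osteoclasts, 0.89 and 0.31. The differences of these 3 genes had adjusted p values of 0.639, 0.877 and 0.639 in limma.

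Sema4d, also named after its values were seen, had the smallest unadjusted p for the difference of the courses among the genes. This semaphorin of osteoclasts and lymphocytes had 9.71 and 9.55 in DMM pools at 2 weeks and 10.09, 10.10 and 10.06 at 16 weeks, and 10.06, 10.05 and 10.09 and 10.01, 10.00 and 10.08 in sham pools, and the difference of 0.50 had an adjusted p of 0.639. Ptx3, an inflammatory pentraxin named in the same way, had a log2 ratio of -1.83 in DMM joints and -0.44 in sham joints. The difference of -1.39 had an adjusted p of 0.639 in limma.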
